A study of Mus musculus with 32 samples.

Results

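The 150 cDNA clones described here had lower values in the heavy than in the light polysome fraction of mouse fibroblasts in each of 4 combinations of cell line and serum state. They were chosen by their measured values from the 15169 clones that had a value in every column, out of 15247 clones on the array. For each clone the values of a group were averaged, and heavy minus light was taken within each of the 4 states of cell line and serum. Only the 6983 clones whose average heavy minus light exceeded, in absolute size, both the average cell line difference and the average serum difference were ranked. The rank value was the least negative of the 4 single-state differences, and the 150 lowest were kept. Heavy minus light, and the bounds on the cell line and serum averages, are therefore properties of the choice and are given as description.

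Translation is often read from a sucrose gradient, in which a transcript travels further the more ribosomes it carries. Messages in steady translation collect on heavy polysomes, whereas messages held back at initiation, messages with short reading frames and RNAs that are not translated stay with the light complexes. eIF4E binds the cap at the start of a message and helps to bring in the small ribosomal subunit. The 4E-binding proteins hold it back, and growth factors in serum release it from them through the mTOR kinase. Withdrawal of serum and an excess of eIF4E are thus known as opposite influences on the initiation of capped messages.

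NIH3T3 is an immortalised mouse embryonic fibroblast line. The line labelled 4E is derived from it and overexpresses eIF4E ectopically. The promoter of that transgene, and whether the line is 1 clone, could not be learned from the sources used here. Each line was sampled basal, in complete medium, or serum stressed, after 16 h without serum, called starved below. Light pools held gradient fractions 4 to 6 (under 1 ribosome on a transcript) and heavy pools fractions 7 to 10 (more than 1). The reference on every array was poly(A) RNA of NIH3T3 cells in full medium, not separated on a gradient. The study asked which transcripts carry the protection from apoptosis that an excess of eIF4E gives these cells.

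Values are log ratios against that reference, taken as log2 and centred on the median of each of the 32 columns. Whether the ratio is sample over reference or the reverse could not be learned from the sources used here, so a negative difference is a sign on the deposited scale and does not show less RNA in the heavy pool. The 4 columns of a group came as 2 ordered pairs: in all 16 pairs, 1 column never lay under its partner. Each pair was averaged into 1 sample, so a group had 2 samples and the study 16. Nothing in the labels ties these to separate cultures, and p-values therefore reflect a spread between samples that may be technical. Values of the 2 control spots were filled in for NIH3T3 basal and 4E starved samples and empty for NIH3T3 starved and 4E basal samples, a split between deposited tables that runs along the cell line by serum term. Clones are known here by ID only, as the files pair no ID with a gene and the mouse RefSeq table (assembly GRCm38.p6) listed 0 of the 150. No gene, gene list, marker of fibroblasts or other cells, or sequence can therefore be given, eIF4E itself could not be checked, and in each comparison no more than 2 positive and 2 negative clones are named.

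The 150 clones stood above the centre of the array in the light samples and below it in the heavy samples. Their median was 0.32 and 0.83 in the NIH3T3 basal light samples and -0.46 and -0.85 in the heavy samples of the same cells. In starved NIH3T3 cells it was 0.57 and 0.89 in the light and -0.26 and -0.78 in the heavy samples. In 4E cells the light medians were 0.83 and 0.82 basal and 0.74 and 0.72 starved, and the heavy medians were -0.58 and -0.23 basal and -0.42 and -0.59 starved. No light sample had a median below that of any heavy sample. In the 8 light samples 114 to 139 of the 150 clones lay above 0, and in the 8 heavy samples 97 to 144 lay below 0. The median of the clones fell at the 76.9th to 92.9th percentile of all clones in the light samples and at the 11.0th to 34.6th in the heavy samples. The 1st light sample of NIH3T3 basal cells was the lowest of the light samples and also had the smallest spread over all clones, with a median absolute deviation of 0.31. The 2nd heavy sample of 4E starved cells had the widest spread, 0.50.

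**Figure D1:**
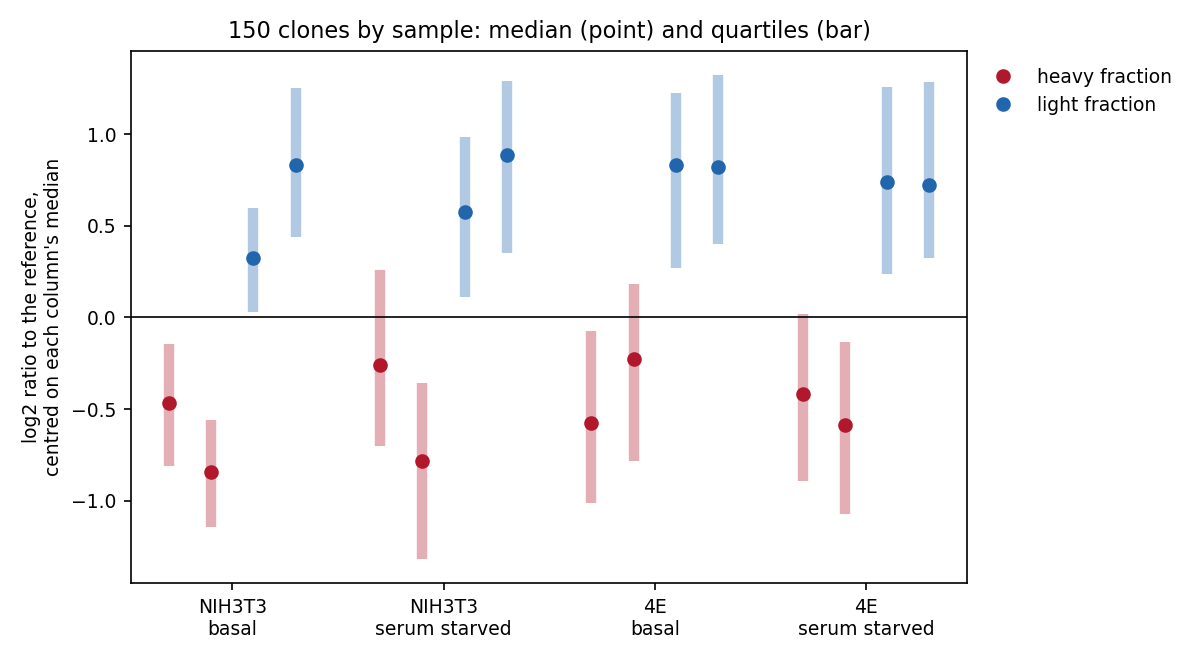
Centred log2 ratio to the reference (vertical axis) of the 150 clones in each of the 16 samples, grouped by cell line and serum state; points are medians over the clones, bars run from the lower to the upper quartile, red is heavy and blue is light. Every light median lies above 0, from 0.32 to 0.89, and every heavy median below it, from -0.85 to -0.23, and these values follow from the way the clones were chosen.

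Of the 150 clones, 115 had a mean below 0 over the heavy and above 0 over the light samples, a pattern held by 16.0% of all clones. The other members lay on one side of the centre in both fractions, 18 above it and 17 below it. Mean levels over all 16 samples ran from -1.45 to 1.68 with a median of 0.12, against a median of 0.03 for all clones. Mean levels of all clones ran from -3.85 to 3.68. The choice set the gap between fractions and favoured the pattern of the 115 clones, so neither is read as a result.

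Heavy minus light had medians of like size in the 4 states, which ranking by the least negative state favours. Another choice of 150 clones, made in the 1st samples only, had state medians from -0.92 to -1.47 in the 2nd samples. Of those clones 59 were among the members, and each of their differences was between 2 single samples. The members' medians were -1.22 in NIH3T3 basal, -1.21 in NIH3T3 starved, -1.25 in 4E basal and -1.26 in 4E starved cells. For the average of the 4 states the median was -1.26. The averages ran from -1.57 to -1.05. The last clone inside the choice had a rank value of -0.917 and the first outside -0.916, so the boundary is not a step in the data. Within 1 clone, the least and the most negative states were 0.06 to 1.12 log2 units apart, with a median of 0.40. The least negative state was NIH3T3 basal for 31 clones, NIH3T3 starved for 37, 4E basal for 50 and 4E starved for 32. Both heavy samples lay below both light samples in 147 clones in NIH3T3 basal, 149 in NIH3T3 starved, 142 in 4E basal and 146 in 4E starved cells. Over all clones this held for 23.4%, 19.1%, 21.8% and 21.8% in the same order. In 137 clones it held in all 4 states, beside 4.32% of all clones. All 8 heavy samples lay below all 8 light samples in 62 of the 150 clones, beside 1.25% of all clones. In the limma fit of all groups, all 150 had an adjusted p under 0.05, with a negative sign, beside 8.83% of all clones tested. Since the choice used this contrast, nothing is read from any of these counts.

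Clone H3155C02 came first by rank. Its heavy values were -1.33 and -2.04 in NIH3T3 basal, -2.88 and -2.06 in NIH3T3 starved, -2.07 and -1.38 in 4E basal and -0.56 and -1.61 in 4E starved cells. Its light values in the same order were -0.57 and 0.09, -1.25 and -0.49, 0.05 and 0.20, and 0.59 and -0.02. The fractions overlapped across states but not within any of the 4. Its average heavy minus light was -1.57, from -1.74 ± 0.69 to -0.17 ± 0.57 (SD, n = 8 each), and it ran from -1.37 in 4E starved to -1.85 in 4E basal cells.

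Clone H3030E02 came second. Its heavy values were -0.31 and -0.59 in NIH3T3 basal, 0.27 and 0.03 in NIH3T3 starved, -1.47 and -0.33 in 4E basal and -0.52 and -0.65 in 4E starved cells. Its light values were 0.92 and 0.99, 1.03 and 1.93, 0.47 and 0.61, and 0.62 and 1.25. The 8 heavy samples all lay below the 8 light samples, and the difference was between -1.33 and -1.52 in each state, with an average of -1.42.

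To measure the fraction difference in samples that had no part in the choice, the same rule was applied to the 1st sample of each group only, and the resulting 150 clones were measured in the 2nd samples. Of these clones, 59 were among the 150 described above. Their heavy minus light in the 2nd samples was negative in 150 of 150, with a median of -1.20 and a range of -1.80 to -0.16, while 50.4% of all clones were negative and the median of all clones was 0.00. By state the median was -1.30 in NIH3T3 basal, -1.47 in NIH3T3 starved, -0.92 in 4E basal and -1.16 in 4E starved cells. In 138 clones (92.0%) the sign was negative in all 4 states, which held for 15.5% of all clones. By limma on the 8 second samples, with the 4 states as blocks and Benjamini-Hochberg adjustment over all clones, 112 of the 150 had an adjusted p under 0.05 with a negative sign, beside 5.2% of all clones. This count moved when 1 state was left out, and so did the count over all clones. It was 6 without NIH3T3 starved (0.185% of all clones called with a negative sign), 55 without 4E starved (1.93%) and 93 without 4E basal cells (3.43%), while the median stayed between -1.31 and -1.09. Without NIH3T3 basal, limma called 0 clones of the whole array in either direction, and 130 of the 150, beside 18.9% of all clones, had an unadjusted p under 0.05. Choosing in the 2nd samples and measuring in the 1st gave a median of -0.88, 150 of 150 negative and 56 called, beside 1.92% of all clones called with a negative sign. The 2 choices shared 33 of their 150 clones (22.0%). Which clones rank lowest therefore varied between the samples of a group, whereas the sign of the difference carried over. Nothing in the labels ties the 2 samples of a group to separate cultures, so this repeat may be technical only.

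**Figure D2:**
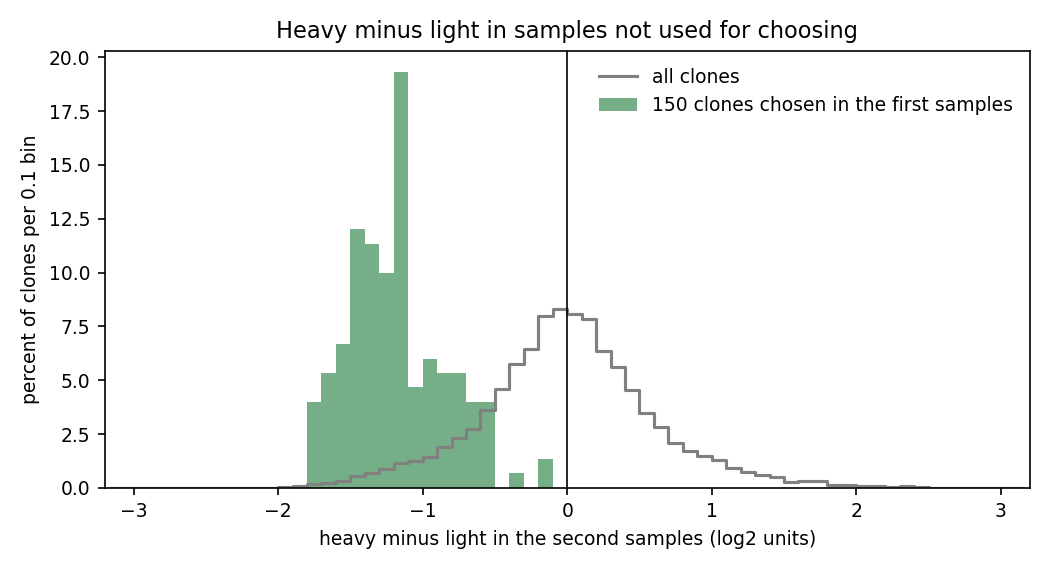
Heavy minus light in the 2nd samples (horizontal axis, log2 units) against the percent of clones in each bin of 0.1 units (vertical axis); green bars are the 150 clones chosen in the 1st samples and the grey line is all measured clones. All 150 lie below 0 around a median of -1.20, while all clones centre on 0.00.

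The clones differed between the cell lines in both directions and by less than between fractions, a bound the choice set. As 4E minus NIH3T3, averaged over fraction and serum, the median was 0.19 and 98 of the 150 were positive (65.3%), beside a median of 0.01 and 51.4% positive for all clones. The medians had 1 sign in both fractions and were larger in basal cells. In basal cells its median was 0.24 (heavy) and 0.26 (light), with 106 and 110 clones positive, and in starved cells 0.07 and 0.10, with 80 and 89 positive. It was positive in all 4 pairs of groups for 53 clones (9.48% of all clones) and negative in all 4 for 18 (8.68% of all clones). Leaving out 1 sample moved the median from 0.12 to 0.27, and 90 to 106 clones stayed positive. Within 1 serum state this comparison also crosses the split by control spots. In the samples not used for choosing, the shift was not steady: the median was 0.02 with 69 of 150 negative in the 2nd samples, and 0.16 with 52 negative in the reverse choice.

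Few single clones passed the test for the cell line difference. By limma, 5 clones were called with a positive sign (1.25% of all clones tested) and 2 with a negative sign (1.36%). The choice bounded this contrast, so nothing is read from the counts. The count of called clones rose or fell when 1 sample was left out, depending on the sample. With the replicate block it was 4 (2.67%, against 2.15% of all clones). In the 2nd samples none of the 150 clones chosen in the 1st was called by limma, beside 0.165% of all clones, and 16 had an unadjusted p under 0.05 (10.7%, against 9.06% of all clones).

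Clone H3028A02 was the most positive. Its 4E values were 0.86 and 0.99 in heavy basal, 1.73 and 1.07 in heavy starved, 2.21 and 1.99 in light basal and 2.87 and 2.34 in light starved samples. Its NIH3T3 values in the same order were 0.18 and 0.07, 0.41 and -0.13, 1.14 and 1.71, and 0.83 and 1.45. The lines did not overlap within any of the 4 pairs of groups, and overlapped only across fractions. The difference was 1.05 (SE 0.18, limma adjusted p = 0.00592).

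Clone H3121A10 was next, from 0.34 ± 0.79 in NIH3T3 to 1.30 ± 0.88 in 4E samples (SD, n = 8 each, heavy and light together), a difference of 0.96 (SE 0.19, limma adjusted p = 0.0122). Its difference was 0.45 and 0.71 in the heavy and light fractions of basal cells and 1.32 and 1.36 in those of starved cells. Both clones were called in each of the alternative settings.

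On the negative side, clone H3127H02 had 4E values of -1.17 and -1.22 in heavy basal, -1.07 and -1.09 in heavy starved, 0.17 and 0.03 in light basal and 0.27 and 0.46 in light starved samples. In NIH3T3 they were -0.56 and -0.44, -0.02 and -0.81, 0.75 and 0.93, and 0.63 and 1.26. The difference was -0.67 (SE 0.16, limma adjusted p = 0.0449) and lay between -0.74 and -0.58 in the 4 pairs of groups. Clone H3145B01 had a difference of -1.14 (SE 0.29, limma adjusted p = 0.0499). Its parts were -0.38 and -0.73 in basal cells and -1.83 and -1.60 in starved cells, heavy first in each. Both negative clones lay close to the threshold. Clone H3127H02 passed it in 8 and clone H3145B01 in 9 of 24 alternative settings.

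The serum difference had a median near 0 over the 150 clones. As starved minus basal, averaged over line and fraction, the median was 0.04 with 81 positive and 69 negative clones, beside 0.02 for all clones. Its sign was not fixed by the data, since the median was -0.01 with quantile normalization and ran from -0.05 to 0.12 when 1 sample was left out. Clones chosen in the 1st samples had a median of 0.15 in the 2nd, with 54 of 150 negative (all clones 0.01), and the reverse choice gave 0.07 with 69 negative. Behind this lay small differences of opposite sign in the lines. In NIH3T3 the median was 0.10 for heavy and 0.15 for light samples, with 90 and 89 clones positive. In 4E cells it was -0.10 and -0.11, with 63 and 65 positive. Each of these comparisons crosses the split by control spots, and serum cannot be told apart from it there.

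By limma, 6 clones were called with a positive serum difference (1.71% of all clones) and 4 with a negative one (1.23%), counts that the choice bounded. The total of 10 fell to 1 without the 1st NIH3T3 heavy basal or the 1st 4E light starved sample. It was 2 without the 1st 4E heavy basal or the 2nd 4E light basal sample, and 3 without the 2nd NIH3T3 light basal, the 2nd 4E heavy basal or the 1st 4E light basal sample. It was 4 without the 1st heavy or the 1st light sample of NIH3T3 starved cells, 5 without the 2nd NIH3T3 heavy starved and 6 without the 2nd 4E heavy starved sample. The highest count was 12. Over all clones the share called in these 16 fits ran from 1.53% to 4.18%. In the 2nd samples none of the 150 clones chosen in the 1st was called by limma, beside 0.0593% of all clones, and 35 had an unadjusted p under 0.05 (23.3%, against 14.1% of all clones).

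Clone H3074B05 was the most positive, and was called in each of the alternative settings. Its starved values were 1.20 and 0.67 in NIH3T3 heavy, 2.08 and 2.17 in NIH3T3 light, -0.32 and 0.42 in 4E heavy and 1.21 and 1.10 in 4E light samples. Its basal values were -0.32 and -0.61, 0.32 and 0.79, -0.74 and -0.87, and 0.55 and 0.65. Starved lay above basal in every pair of groups, with no overlap within a pair. The difference was 1.10 (SE 0.17, limma adjusted p = 0.00363), and clone H3123D09 followed with 0.96 (SE 0.21, limma adjusted p = 0.0259). The latter lost its call in 12 of 24 alternative settings.

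The 2 most negative clones, H3027E01 and H3027E02, sit in neighbouring wells by their IDs and had nearly the same values. H3027E01 went from -0.63 and -1.35 basal to -2.35 and -2.70 starved in NIH3T3 heavy samples, and from 0.10 and 0.10 to -1.11 and -0.64 in NIH3T3 light samples. In 4E cells it went from -0.94 and -0.80 to -1.23 and -2.63 in heavy and from 0.17 and 0.00 to -1.44 and 0.07 in light samples. Starved lay below basal within each fraction of NIH3T3 and in the heavy samples of 4E cells. In both fractions of 4E cells the 2 starved samples stood far apart, and the starved light value of 0.07 lay between the basal ones. The difference was -1.08 (SE 0.25, limma adjusted p = 0.0291) for H3027E01 and -1.03 (SE 0.24, limma adjusted p = 0.0291) for H3027E02, and each lost its call in 12 of 24 alternative settings. The median absolute gap between the 2 clones over the 16 samples was 0.118 log2 units, the 10th smallest among the 11175 pairs of members, whose median was 0.611. They are therefore not counted as separate evidence. The other neighbouring pair among the members had a gap of 0.481, the 3618th smallest, and the 3 closest pairs were not in neighbouring wells. The pair H3027E01 and H3027E02 was singled out after its values were seen. Whether both hold the same transcript, or share material from the plate, was not tested.

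The choice did not use the cell line by serum term, the starved minus basal difference of 4E cells minus that of NIH3T3 averaged over fraction. Of the 150 clones, 1 was called with a negative sign and 0 with a positive sign by limma, beside 2.01% and 2.64% of all clones. At an unadjusted p under 0.05 there were 12 of 150 (8%), against 20.4% of all clones. The median absolute size of the term was 0.33 in the members and 0.45 in all clones. Its median was -0.20 in the members, with 105 of 150 negative, against 0.00 for all clones. Leaving out 1 sample moved that median from -0.39 to -0.05. The term coincides with the split by control spots, and cannot be told apart from it. In the 2nd samples none of the 150 clones chosen in the 1st was called by limma, beside 0.0923% of all clones, and 6 had an unadjusted p under 0.05 (4%, against 10.9% of all clones). The median was -0.06.

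The 1 called clone was H3105F01. In NIH3T3 cells it went from -1.27 and -1.77 basal to -0.78 and -0.91 starved in heavy samples, and from -0.87 and -0.01 to 0.21 and 0.10 in light samples. In 4E cells it went the other way, from 0.06 and -0.22 to -0.98 and -1.45 in heavy and from 0.69 and 1.14 to 0.47 and -0.19 in light samples. Basal and starved samples did not overlap in any of these 4 comparisons. The term was -1.59 (SE 0.37, limma adjusted p = 0.0246), with -1.81 among heavy and -1.37 among light samples. It was no longer called in 7 of the 16 fits without 1 sample, those without the 2nd NIH3T3 heavy basal, 1st NIH3T3 light basal, 1st NIH3T3 heavy starved, 1st NIH3T3 light starved, 1st 4E heavy basal, 2nd 4E light basal or 2nd 4E light starved sample.

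**Figure D3:**
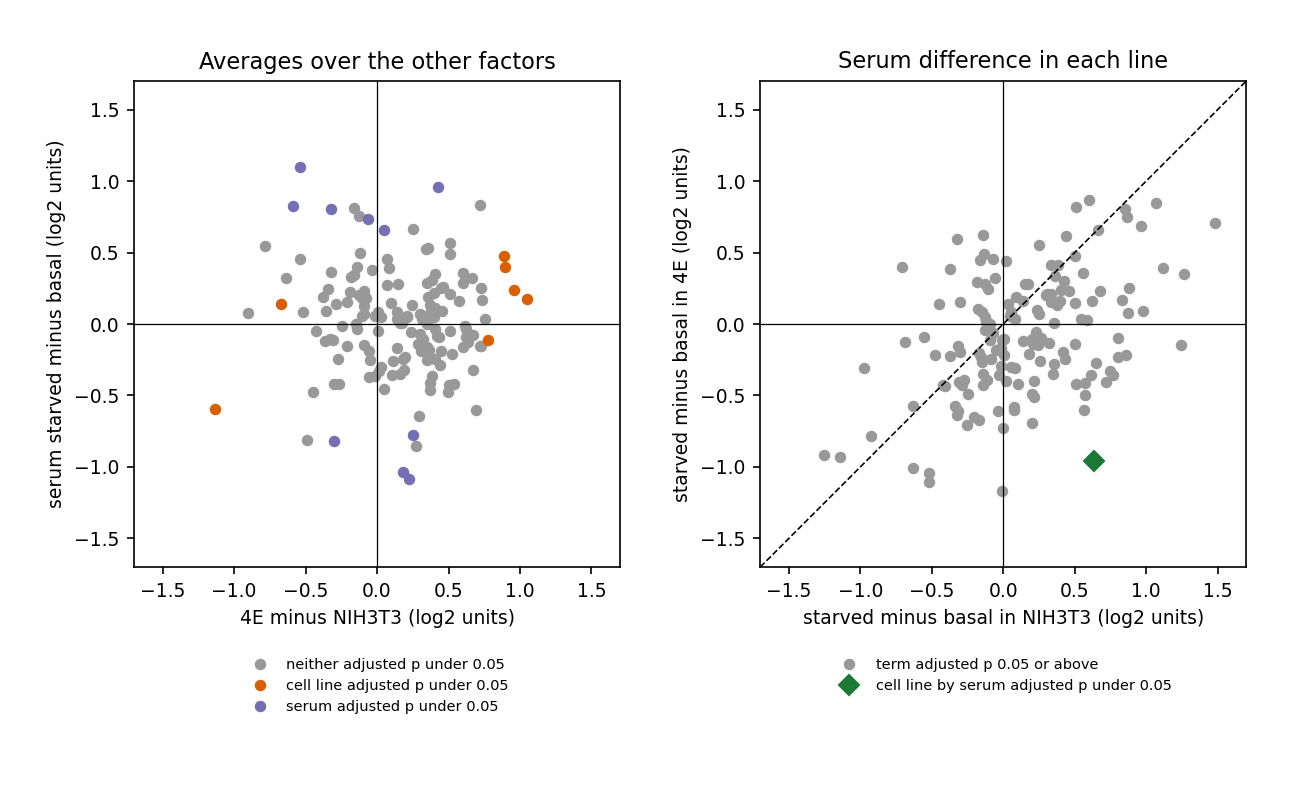
The 150 clones as points, in log2 units. On the left the average 4E minus NIH3T3 difference (horizontal) is set against the average starved minus basal difference (vertical), with the 7 clones called for the line in orange and the 10 called for serum in violet. On the right the starved minus basal difference in NIH3T3 (horizontal) is set against that in 4E cells (vertical), the dashed line marks equal values and the diamond is H3105F01.

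Set by direction, 47 of the 150 clones were positive for starved minus basal in both lines and 46 negative in both. The 40 positive in NIH3T3 and negative in 4E cells (26.7%) outnumbered the 17 with the reverse (11.3%), while in all clones these classes held 27.6% and 27.0%. For 4E minus NIH3T3, 75 clones were positive in basal and starved cells alike (50.0%, against 23.4% of all clones), 32 negative in both, 31 positive only in basal and 12 positive only in starved cells. Within each side of the control spot split, line and serum change together. On the side with control values, 4E starved minus NIH3T3 basal had a median of 0.18 with 99 clones positive, beside 52.2% of all clones. On the side without, 4E basal minus NIH3T3 starved had a median of 0.19 with 94 positive, beside 49.6% of all clones. Heavy minus light had a median of -1.25 on the first side and -1.24 on the second. The choice bounded this difference in every state, so nothing is read from the likeness of the sides.

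**Figure D4:**
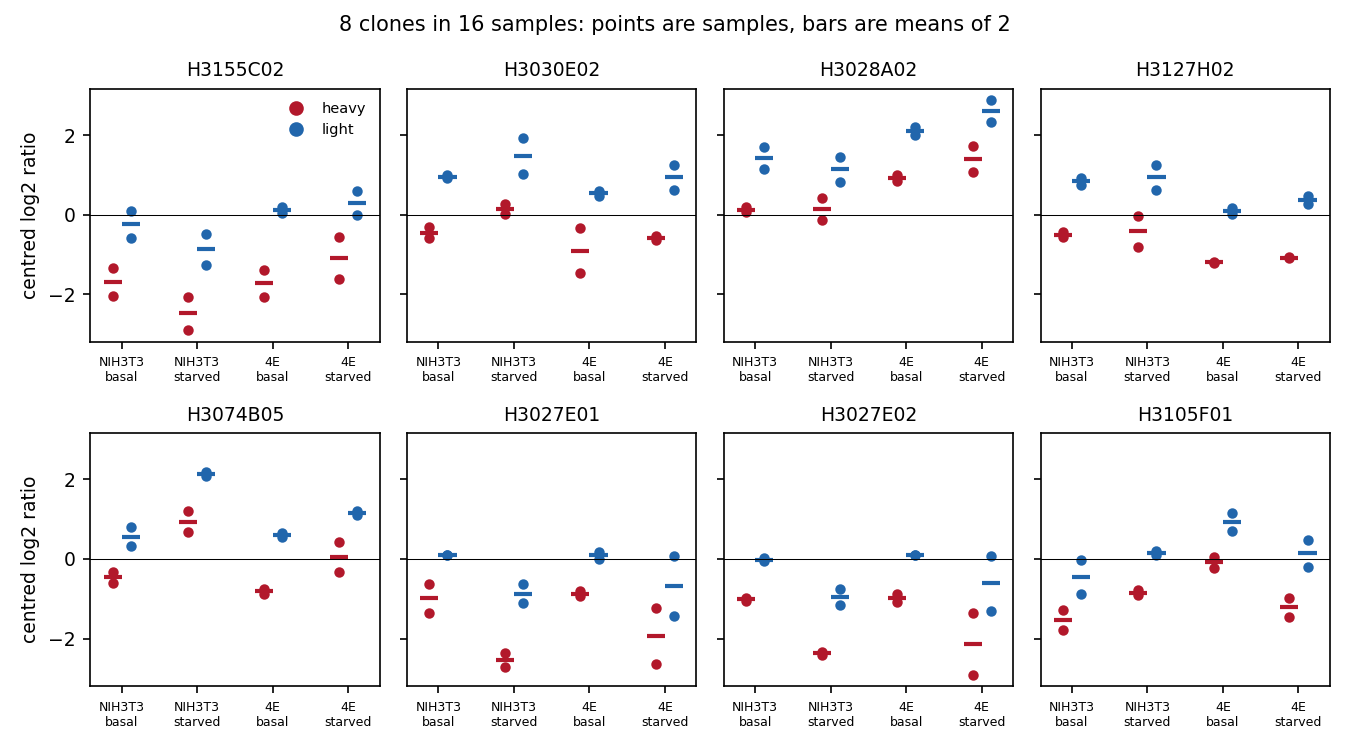
Centred log2 ratio (vertical axis) of 8 named clones in the 4 states of cell line and serum (horizontal axis); each point is 1 sample, each short bar the mean of the 2, red is heavy and blue is light. The heavy mean lies below the light mean in every state of each clone, while level and response differ, from H3028A02, higher in 4E cells, to H3027E01 and H3027E02, which run almost alike.

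The members also shared features of the measurement that the rule did not use directly. The 2 columns of a sample held equal values for 0 to 6.67% of the members, against 8.54 to 23.8% of all clones. Of the 150, 103 had no sample with equal columns, and the median number of such samples was 0 in the members and 2 in all clones. The 3018 clones of the array without such a sample had a median absolute average heavy minus light of 0.55, against 0.25 for all clones. Whether choosing for a large fraction difference favoured such clones was not tested. Where the columns were unequal their median gap was 0.098 to 0.183 in the members and 0.169 to 0.240 in all clones, by sample. The residual SD between samples of a group was not smaller, with a median of 0.43 in the members and 0.39 in all clones. Of the 3018 clones whose columns differed throughout, 17.4% had an unadjusted p under 0.05 for the cell line by serum term, and 7 of the 103 such members did (6.80%). What equal columns stand for is unknown here, and their part in these results was not tested.

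By the letters and digits of their IDs, the clones came from 98 of 159 plates, with at most 4 on a plate. Plate rows A to H gave 15 to 23 members each. By plate column the number ran from 3 in column 12 to 19 in columns 2 and 4. Only 4 of the members had another member in a directly neighbouring well.

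The 150 clones chosen by the mirrored rule, steadily positive in heavy minus light, had a median of 1.49. Their 4E minus NIH3T3 difference had a median of -0.11 with 55 positive, and their starved minus basal difference one of 0.30 with 118 positive. For the cell line by serum term their median was 0.48 with 126 positive, and 7 were called (4.67%), all with a positive sign. Over all clones 4.65% were called in either direction and 2.64% with a positive sign. In 4E cells their starved minus basal median was 0.60 for heavy and 0.48 for light samples, where that of the negative clones was -0.10 and -0.11. These values are set side by side, and the difference between the 2 sets was not tested.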

How the data were processed

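Per the labels, fraction RNA and the reference competed on 2-colour cDNA arrays, and the values the authors deposited were read as log2 ratios. The log base, direction, scanner, background correction, normalization and spot filter were not given in the sources used here. The largest absolute value, 11.3, would be beyond a log10 ratio of scanned signals, but log2 and natural log were not separated. The lowest correlation of 2 columns over all clones was 0.02. Column medians were -0.15 to 0.18. The number of arrays limits the precision.

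Of 15249 rows, 2 controls and 78 clones with a missing value were left out. Columns were centred on their medians and title numbers 1 with 2 and 3 with 4 averaged (equality tolerance 1e-06), giving 16 samples. Differences were tested with limma (3.58.1, R 4.3.3) in 1 fit of 8 group means (8 residual and 6.52 prior degrees of freedom), averaged over the other factors, with Benjamini-Hochberg adjustment over all clones and a threshold of 0.05. The script was tested on simulated data. The members, comparisons and lists were chosen with earlier results of these data known. Gene lists and markers could not be run. Named clones are the 2 first by rank and, elsewhere, up to 2 with the largest called difference each way. Alternatives were the scaling, the filter, the prior, weights, the block and leaving out samples.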

Additional observations from a re-analysis of the deposited data

Results flagged for a closer look

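The serum response of clone H3105F01 differed between the lines by the test of the cell line by serum term: starved minus basal in 4E cells, less that in NIH3T3, was -1.59 log2 units (limma adjusted p = 0.0246). It was positive in both fractions of NIH3T3 and negative in both of 4E cells, and the split by control spots runs along the same term. In 24 groups of 8 samples (each named clone and the members' median, by fraction), no sample stood apart by Dixon's test. Each group of 8 pooled the 4 states, so differences between states widened its range. The test could therefore miss a sample that deviated from its partner, and no conclusion is drawn from it.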

How the results depend on the processing

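Each alternative that kept all 16 samples called all 150 clones for heavy minus light, beside 16.8% to 40.3% of all clones. Some members lost the call when 1 sample was left out, while their median stayed between -1.34 and -1.17. Of the 150 clones, other choices of column or scaling kept 124 to 146, and leaving out 1 sample kept 97 to 134. With each column as a replicate, which counts every pair as 2 samples, 69 were called for cell line (46%, against 23.4% of all clones), 42 for serum (28%, against 25.1%) and 36 for the cell line by serum term (24%, against 32.4%). Leaving out 1 sample gave 4 to 10 calls for cell line, 1 to 12 for serum and 0 to 1 for the term. Choosing in the 2nd samples and measuring in the 1st gave a heavy minus light median of -0.88 with 56 calls, and 7, 8 and 1 calls for cell line, serum and the term, beside 1.25%, 3.18% and 2.30% of all clones. Without 1 state, the calls for heavy minus light with a negative sign in the 2nd samples ran from 0 to 93. Negative calls over all clones ran from 0 to 520 in the same fits. The causes were not tested.

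With the replicate block, 4 clones were called for cell line, 10 for serum and 1 for the term. Over all clones the shares were 2.15%, 2.38% and 4.05%. Same-numbered samples did not deviate together throughout. Over 28 pairs of groups r ran from -0.33 to 0.36, with a median of -0.09 and 9 above 0.1. Some pairs of groups thus tended to deviate together and others in opposite directions. Whether samples of different groups share a batch was not tested. Among the alternative values of the named clones, 190 stayed on their side of the threshold, 74 lost it and 0 changed sign. Across the members the median 95% half-width was 0.45 for fraction, line and serum and 0.89 for the term. Directions, the log base and gene identities limit every statement.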
